A study of Mus musculus with 37 samples.

Results

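The 10 genes described here belong to the antioxidant programme of Nrf2: Nfe2l2, Keap1, Nqo1, Gclc, Gclm, Hmox1, Txnrd1, Slc7a11, Srxn1 and Gsr. They were chosen by name, as the rows of the count table whose gene symbol is one of these, and all 10 were found among 39017 genes. All 10 passed the filters on low counts in every fit. The libraries were bulk RNA-seq of 37 tumours that grew for 3 weeks under the skin of C57BL/6 mice after implantation of pancreatic tumour cells, with no treatment given. The implanted cells were clones, each called by the first part of its tumours' titles, as in bulk_2669c4 (the plots drop "bulk_"), and their T cell phenotype was labelled high (15 tumours of 7 clones), low (15 tumours of 7 clones) or intermediate (4 tumours of 2 clones). For 3 tumours the labels give no phenotype, and these enter no comparison. The sources used here give neither the genotype of the cells nor the age and sex of the mice, nor the way the phenotype was measured. A clone is the replicate between phenotypes, since its tumours share the implanted cells. In a bulk tumour, fewer cells of a type and less RNA per cell cannot be told apart.

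Nrf2, the protein of Nfe2l2, is a transcription factor that is normally held by Keap1, an adaptor of the Cul3 ubiquitin ligase, and degraded. Oxidants and electrophiles modify cysteines of Keap1, Nrf2 then accumulates, pairs with a small Maf protein and binds antioxidant response elements near its target genes. The targets here serve quinone reduction (Nqo1), cystine import (Slc7a11), glutathione synthesis (Gclc, Gclm), glutathione reduction (Gsr), the thioredoxin system (Txnrd1, Srxn1) and haem breakdown (Hmox1). Nrf2 activity in pancreatic tumour cells is known for its part in redox balance.

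The core of the element, TGACNNNGC, and the related form TGAGNNNGC, were searched on both strands in the RefSeq promoters of GRCm38.p6, from 250 bases before to 50 bases after each start. Of the 10 genes, 7 matched the promoter table by symbol, with 9 promoters between them; Gclc, Hmox1 and Gsr were not matched. At least 1 of the forms was found in 5 of these 9 promoters, against 27.8% of all 32851 promoters (12.4% for TGACNNNGC and 17.6% for TGAGNNNGC). A match is a description of the letters, not a site of binding. The windows below show what the matches look like in the 5 genes that had one, 5′ to 3′ on the gene's strand, with the match in capitals. In Gclm, Slc7a11 and Txnrd1 the form reads on the opposite strand, so the capitals are its reverse complement.
Gclm, chr3:122245407-122245447, plus strand, match from -134 to -126: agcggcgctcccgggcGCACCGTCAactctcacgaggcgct
Nfe2l2, chr2:75704879-75704913, minus strand, match from -240 to -232: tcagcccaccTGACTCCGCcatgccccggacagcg
Slc7a11, chr3:50443686-50443726, minus strand, match from -97 to -89: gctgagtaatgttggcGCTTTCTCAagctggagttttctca
Srxn1, chr2:152105463-152105503, plus strand, match from -45 to -37: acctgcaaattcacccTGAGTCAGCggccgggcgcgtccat
Txnrd1, chr10:82859098-82859138, plus strand, match from -92 to -84: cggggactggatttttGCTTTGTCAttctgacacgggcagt
The Srxn1 promoter held 2 more matches, from -158 to -150 and from 28 to 36. Neither form was found in the windows of Nqo1 and Keap1.

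The libraries of the 34 tumours with a phenotype held 7.39 to 102.3 M counts (median 31.8 M). The ductal epithelial and tumour cell markers (Krt19, Epcam and 8 others) were present in every library, at a summed 4078 to 11246 CPM (counts per 1000000 counts of a library). A set of 17 libraries, called liver-rich here, also held abundant transcripts of liver and heart. Their sum over the heart myosins Myh6 and Myh7 and the liver genes Cps1 and Serpina3k ran from 257.7 to 5922 CPM. The other 17, called liver-poor, held at most 0.539 CPM of these 4 genes. All 16 tumours numbered 1 were liver-rich, as was bulk_2669c4 tumour 2, so tumour number and library class cannot be told apart. The class was balanced over phenotypes: 7 of 15 high, 8 of 15 low and 2 of 4 intermediate libraries were liver-rich. The liver-poor libraries cover 15 of the 16 clones (7 high, 6 low, 2 intermediate), each with 1 or 2 tumours; bulk_6422c1 has none. They are not free of liver RNA, since a wider list of 10 liver markers summed to 2.82 to 375 CPM in them. The median of that sum was 8.33 CPM in high, 40.4 in low and 32.6 in intermediate liver-poor libraries. The ranges overlapped (2.82 to 99.3, 4.97 to 375 and 3.02 to 62.2 CPM). Among the liver-rich libraries, 7 were nearly alike although their labels name different clones: tumour 1 of bulk_2838c3, bulk_6419c5, bulk_6499c4, bulk_6555c3, bulk_6556c4, bulk_6620c1 and bulk_6694c2 (5 high, 2 low). Between any 2 of these the chi-squared statistic per gene was 3.35 to 39.6, below the 53.0 of the closest pair of tumours from 1 clone. Results are therefore given for all libraries and for the liver-poor ones, which leave these 7 out.

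Per length, Gsr was the most abundant of the 10 transcripts and Nqo1 and Slc7a11 the least. Over the 15 clones, in the liver-poor libraries, the median of Gsr was 195 FPKM, which is CPM divided by kilobases of exon (range 123 to 404). Gclc (46.6), Hmox1 (45.3), Nfe2l2 (37.9) and Txnrd1 (32.2) followed with medians close to each other and overlapping ranges. Keap1 (15.05), Gclm (13.3) and Srxn1 (11.1) lay lower. Nqo1 had a median of 2.75 FPKM (0.256 to 12.2) and Slc7a11 of 2.20 FPKM (0.614 to 12.5), and these 2 did not differ beyond their spread.

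The genes differed widely in how much they varied between clones. Over the same 15 clones the standard deviation (SD) of log2 CPM, here scaled by edgeR's TMM factors with a prior count of 2, was 2.12 for Nqo1, which is the 98.8th percentile of 17905 genes, and 1.20 for Slc7a11, the 92.2nd percentile. In CPM of total counts the highest clone stood 47.8-fold above the lowest for Nqo1 and 20.3-fold for Slc7a11. Gsr and Gclc (SD 0.60 and 0.59), Gclm (0.49), Hmox1 (0.43) and Keap1 (0.36) lay nearer the median gene (0.45). Nfe2l2 (0.24, the 10.8th percentile), Srxn1 (0.29, the 22.6th) and Txnrd1 (0.18, the 2.72nd) were among the steadier transcripts. The transcript of the factor itself thus varied 1.73-fold at most, in CPM, over clones in which Nqo1 varied 47.8-fold.

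**Figure D1:**
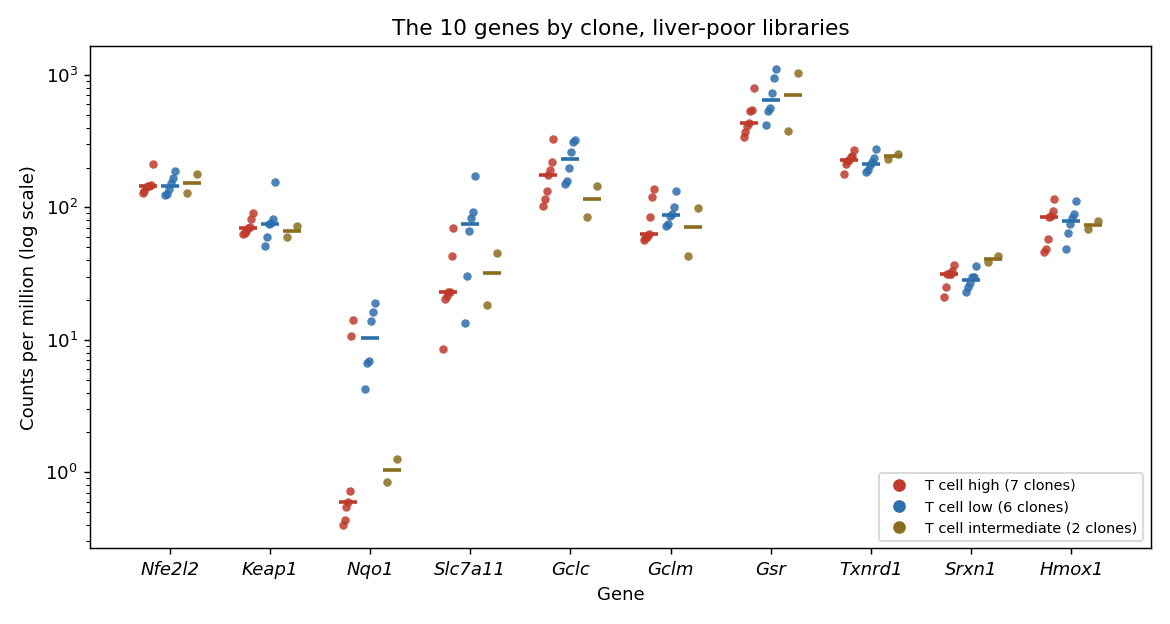
Level of each of the 10 genes by clone, in CPM on a log axis, in the liver-poor libraries. Each point is a clone (7 T cell high, 6 low, 2 intermediate) and each short line a group median; Nqo1 falls into a range of 0.397 to 1.25 and a range of 4.27 to 19.0, while Txnrd1 stays between 179 and 277.

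Between tumours of different clones, 6 of the 10 genes differed beyond the spread between tumours of 1 clone, against 35.1% of 18593 genes tested (edgeR quasi-likelihood F test on 34 tumours with a term for library class, Benjamini-Hochberg adjusted p under 0.05 over all genes). These were Gsr (adjusted p = 1.71e-04), Slc7a11 (2.54e-04), Gclm (3.63e-04), Nqo1 (0.0125), Gclc (0.0183) and Nfe2l2 (0.0265). Txnrd1 (0.486), Keap1 (0.303), Hmox1 (0.188) and Srxn1 (0.138) did not pass. Without the 7 nearly alike libraries 5 of the 6 passed, and Nfe2l2 did not (0.187), against 5537 of 18172 genes. Without the term for library class only Gclm and Slc7a11 passed, against 2549 of 18593 genes.

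Nfe2l2 and its inhibitor Keap1 did not pass in any comparison of the phenotypes. Nfe2l2 lies on chromosome 2 (75675513 to 75704641, GRCm38) and Keap1 on chromosome 9 (21229730 to 21239361). In the liver-poor libraries Nfe2l2 was at 151 ± 28.2 CPM in high clones (SD, n = 7), 149 ± 25.0 in low clones (n = 6) and 153 ± 35.2 in intermediate clones (n = 2). The 3 groups overlapped almost fully, and the high clone bulk_6421c2 stood above the others at 213 CPM. Keap1 was at 72.4 ± 10.3 CPM in high, 83.4 ± 37.4 in low and 66.1 ± 8.43 in intermediate clones. The low clone bulk_6499c3 was the highest for Keap1, at 156 CPM, where the other low clones were at 51.3 to 82.2 CPM. That value is from tumour 2 alone. The liver-rich tumour 1 of this clone held 48.03 CPM, below the liver-rich median of 58.9 CPM. With all libraries the log2 difference of high minus low clones was 0.02 for Nfe2l2 (standard error 0.13, adjusted p = 0.982, edgeR) and -0.12 for Keap1 (0.18, 0.903). The sign of both flips when 1 clone is left out, Keap1 without bulk_6499c3 being at 0.11.

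Nqo1, the quinone reductase often read as the marker target of Nrf2, was low in 5 of 7 high clones and in both intermediate clones, and higher in all 6 low clones. The gene lies on the minus strand of chromosome 8 (107388225 to 107403206). In the liver-poor libraries the high clones bulk_6421c2, bulk_7160c2, bulk_6620c1, bulk_6555c3 and bulk_6499c4 were at 0.397, 0.434, 0.543, 0.600 and 0.717 CPM. These values rest on 12 to 24 counts per tumour. The other high clones, bulk_6556c4 and bulk_2838c3, were at 10.8 and 14.1 CPM, inside the range of the low clones. The low clones were at 4.27 (bulk_6419c1), 6.73 (bulk_6419c5), 6.92 (bulk_6694c2), 13.9 (bulk_6499c3), 16.2 (bulk_2669c4) and 19.0 CPM (bulk_6556c3). The intermediate clones bulk_7160c5 and bulk_6422c5 were at 0.843 and 1.25 CPM, below every low clone. So 5 of 7 high clones lay below every low clone, and the groups overlapped through bulk_6556c4 and bulk_2838c3.

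In edgeR's fit on these clone sums the log2 difference of high minus low was -1.49 for Nqo1 (standard error 0.86, adjusted p = 0.816), which did not pass. The mean of the TMM-scaled log2 CPM, which gives each clone the same weight, differed by -2.83, with p = 0.0233 in a two-sided exact permutation test over 13 clones that is not adjusted for the genes tested. With all libraries the difference was -0.85 (0.45, adjusted p = 0.675). In limma voom on single tumours it was -1.83 (0.59, adjusted p = 0.464), and -1.53 (0.57, adjusted p = 0.561) with the tumour number as a block; neither passed. Leaving out bulk_2838c3 brought the difference in the liver-poor set to -2.26, and it stayed short of the threshold. In 3 high clones tumour 1 is 1 of the nearly alike libraries and stood far from tumour 2: 19.6 against 0.717 CPM in bulk_6499c4, 21.0 against 0.600 in bulk_6555c3 and 14.1 against 0.543 in bulk_6620c1. All 7 nearly alike libraries held 14.1 to 21.0 CPM. In the high clones bulk_6421c2 and bulk_7160c2, whose tumour 1 is not among them, that tumour held 3.42 and 1.99 CPM.

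**Figure D2:**
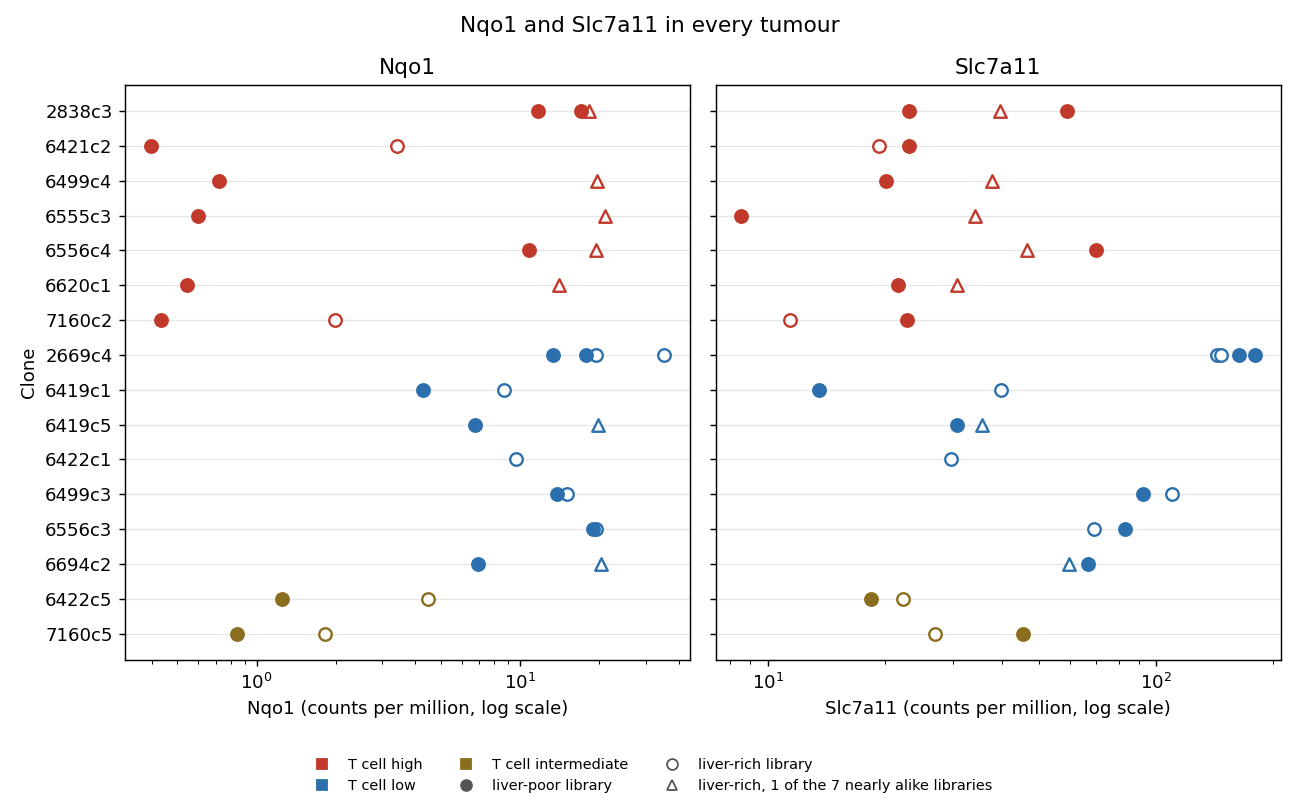
Nqo1 (left) and Slc7a11 (right) in each of the 34 tumours with a phenotype, in CPM on a log axis, 1 row per clone. Filled points are liver-poor libraries, open circles liver-rich libraries and open triangles the 7 nearly alike libraries; Nqo1 is under 1 in 5 high clones' filled points and between 14.1 and 21.0 in all triangles.

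Slc7a11, the light chain of the cystine and glutamate exchanger that supplies cysteine for glutathione, had a lower median in high than in low clones, and the groups overlapped. It lies on the minus strand of chromosome 3 (49892526 to 50443614). In the liver-poor libraries the high clones ranged from 8.54 CPM (bulk_6555c3) to 69.8 CPM (bulk_6556c4), with a median of 22.8. The low clones ranged from 13.5 CPM (bulk_6419c1) to 173 CPM (bulk_2669c4), with a median of 74.8, and 3 of them stood above every high clone. The intermediate clones were at 18.4 (bulk_6422c5) and 45.5 CPM (bulk_7160c5). The 4 tumours of bulk_2669c4 were at 143 to 179 CPM, above all 30 other tumours with a phenotype. The log2 difference of high minus low was -1.24 with all libraries (standard error 0.41, adjusted p = 0.659, edgeR) and -1.36 with the liver-poor ones (0.53, 0.724); neither passed. Leaving out bulk_2669c4 brought it to -0.88 and -0.92. With that clone kept, the exact permutation p of the mean log2 levels, unadjusted, was 0.0338 and 0.0874 in the 2 sets.

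Of the glutathione genes, Gclc and Gclm encode the catalytic and modifier subunits of glutamate-cysteine ligase, the first step of glutathione synthesis, and Gsr the reductase that recycles it. Gclc lies on chromosome 9 (77754535 to 77794485), Gclm on chromosome 3 (122245557 to 122270732) and Gsr on chromosome 8 (33652523 to 33698163). Gclc was at 181 ± 77.8 CPM in high clones (SD, n = 7), 233 ± 75.8 in low clones (n = 6) and 115 ± 43.9 in intermediate clones (n = 2), in the liver-poor libraries. Gclm was at 82.9 ± 33.1, 92.8 ± 22.1 and 70.7 ± 39.4 CPM in the same order. Gsr was at 491 ± 157, 718 ± 266 and 704 ± 465 CPM. The ranges over clones overlapped between phenotypes, except for Gclc between intermediate and low clones. There both intermediate clones (84.1 and 146 CPM) lay below every low clone (149 to 322 CPM). Single tumours overlapped, with a low liver-poor tumour at 139 CPM of Gclc. The intermediate clone bulk_7160c5 was the lowest of the 15 for both ligase subunits, at 84.1 CPM of Gclc and 42.8 of Gclm. The low clone bulk_2669c4 was the highest for Gsr, at 1113 CPM, with the intermediate clone bulk_6422c5 next at 1033 CPM. With all libraries the log2 difference of high minus low was -0.48 for Gclc (standard error 0.22, adjusted p = 0.667), -0.50 for Gsr (0.25, 0.667) and -0.22 for Gclm (0.23, 0.829), all from edgeR and none passing. Their exact permutation p, unadjusted, was 0.0239, 0.0897 and 0.207. The differences in the liver-poor libraries were -0.37 for Gclc (0.27), -0.56 for Gsr (0.30) and -0.16 for Gclm (0.26), with an exact permutation p of 0.181, 0.0851 and 0.366.

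The thioredoxin genes, Txnrd1 on chromosome 10 (82833951 to 82897712) and Srxn1 on chromosome 2 (152105516 to 152111376), had small spreads over clones. Txnrd1, thioredoxin reductase of the cytosol, was at 229 ± 28.3 CPM in high clones, 220 ± 33.9 in low and 243 ± 14.7 in intermediate clones. Its log2 difference of high minus low was 0.05 (standard error 0.12) in this set and 0.06 (0.10) with all libraries. Srxn1, which reduces overoxidised peroxiredoxins, was at 30.0 ± 5.13 and 28.4 ± 4.55 CPM in high and low clones. The intermediate clones bulk_6422c5 and bulk_7160c5 held 38.5 and 42.9 CPM of Srxn1, above all 13 high and low clones (21.2 to 36.5). Single tumours overlapped, with bulk_2838c3 tumour 3 at 41.9 CPM. In the liver-rich libraries the intermediate clones held 45.9 and 46.8 CPM, inside the range of the high clones (33.3 to 49.6). With all libraries Srxn1 was 0.44 higher on the log2 scale in intermediate than in low clones (standard error 0.16, adjusted p = 0.182, edgeR) and the value did not pass.

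Hmox1, the inducible enzyme that opens haem to biliverdin, iron and carbon monoxide, did not pass between high and low clones in any fit run. It lies on chromosome 8 (75093621 to 75100589). Its level was 75.8 ± 25.7 CPM in high, 78.7 ± 21.8 in low and 73.8 ± 7.80 in intermediate clones. Of the high clones, bulk_6555c3, bulk_6499c4 and bulk_6620c1 were at 46.1, 48.5 and 58.0 CPM and the others at 84.3 to 115 CPM. Single tumours did not keep to these ranges. In bulk_2838c3, at 93.2 CPM, the liver-poor tumours 2 and 3 held 58.9 and 121 CPM. The low clones ran from 48.7 CPM (bulk_6556c3) to 112 CPM (bulk_6419c1) across the same range. The log2 difference of high minus low was -0.05 (standard error 0.24) here and -0.0042 (0.18) with all libraries, and its sign changed with the clone left out. Macrophages also express Hmox1: the summed 10 macrophage markers had a median of 1828 CPM in high, 1434 in low and 3106 in intermediate libraries of this set, with overlapping ranges (657 to 2714, 874 to 2475 and 1425 to 4787), and their part in the Hmox1 level was not tested.

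Over the 10 genes, 0 were called between high and low clones in either set of libraries, where 0% of all genes passed the adjusted threshold (edgeR). DESeq2 called 0 of the 10 as well, against 24 of 22265 genes with all libraries and 40 of 18447 with the liver-poor ones. At an unadjusted p under 0.05 in edgeR there were 2 of 10 with all libraries (Slc7a11 and Gclc), against 7.45% of 20348 genes. With the liver-poor ones there was 1 of 10 (Slc7a11), against 6.52% of 17905. The median log2 difference of the 10 was -0.17 with all libraries, and 3 of the 10 were above 0, where the median of all genes was -0.00013. The liver markers were lower in high clones by estimate: 0 of 10 were above 0 with all libraries (median -0.18). With the liver-poor ones 1 of the 6 tested was above 0 (median -3.06). Of these markers 0 and 4 in turn had an unadjusted p under 0.05, and 0 passed (edgeR). The part of liver RNA in the values of the 10 genes was not tested. The T cell markers, a check of the labels, were higher in high clones for 10 of 10 genes by estimate, at a median log2 difference of 1.27 with all libraries and 0.69 with the liver-poor ones. Of these, 0 passed in edgeR, and 7 and 3 had an unadjusted p under 0.05. Against intermediate clones the T cell markers did not follow the order of the labels by estimate. In high minus intermediate 0 of 10 were above 0 with all libraries (median -0.95) and 1 of 10 with the liver-poor ones (median -0.90). There 0 passed, and 3 had an unadjusted p under 0.05 in each set.

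**Figure D3:**
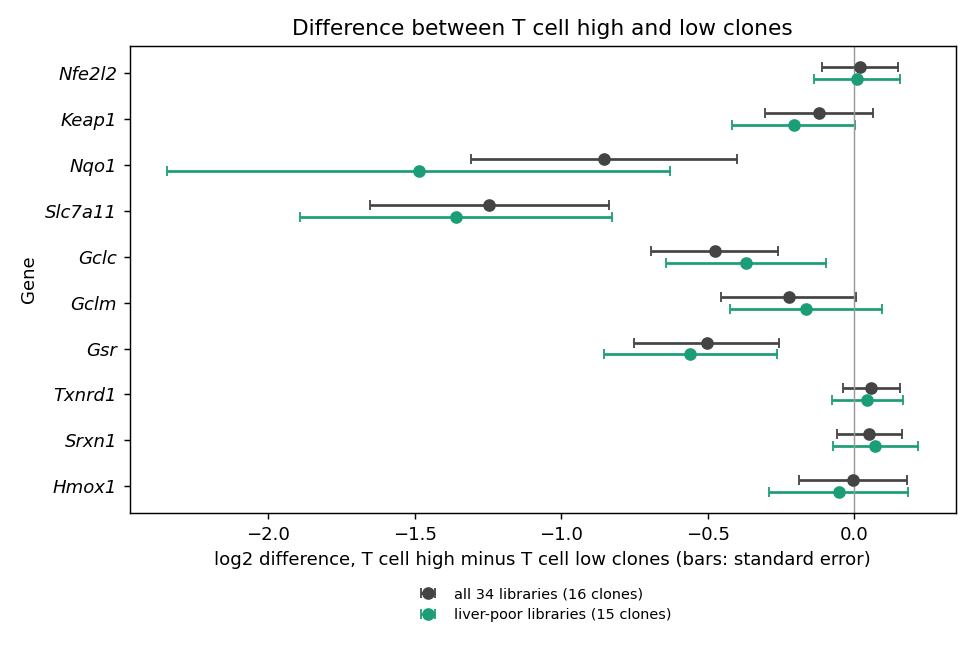
Log2 difference of T cell high minus low clones for each gene from edgeR, with all 34 libraries (16 clones, grey) and with the liver-poor libraries (15 clones, green); bars are standard errors. Nqo1 (-0.85 and -1.49) and Slc7a11 (-1.24 and -1.36) lie farthest from 0, and no gene passed the adjusted threshold.

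Between intermediate and low clones Nqo1 had the largest estimate of the 10 genes, a log2 difference of -2.46 with all libraries (standard error 0.80, adjusted p = 0.140, edgeR). DESeq2 called this difference (-2.49, adjusted p = 0.0104), as it called 941 of 21013 genes. Nqo1 was the only member called in the fits run between phenotypes. In the liver-poor libraries DESeq2 did not call it (-3.39, adjusted p = 0.400), where 27 of 23277 genes were called. No gene passed in edgeR (0% of 20348); 2 of the 10 had an unadjusted p under 0.05, Nqo1 and Srxn1, against 16% of all genes. Slc7a11 stood at -1.32 (0.66, adjusted p = 0.342). In the liver-poor libraries Nqo1 was at -3.39 (1.58, adjusted p = 0.787), Gclc at -0.98 (0.43) and Srxn1 at 0.54 (0.21). The liver markers moved with this contrast: all 10 were lower in intermediate clones with all libraries (median log2 difference -3.04), and tumour 1 of both intermediate clones held 646 and 906 CPM of them where low libraries of that class held 3918 to 14258. Of the 6 liver markers tested in the liver-poor libraries 1 was above 0, and their median was -1.22. Other cell types moved with the contrast as well. The macrophage, T cell, fibroblast and endothelial markers were each higher by estimate in intermediate clones for 10 of 10 genes with all libraries, at medians of 1.10, 2.25, 1.16 and 0.72, and 9, 10, 10 and 8 of them had an unadjusted p under 0.05. Each list was again above 0 in the liver-poor libraries for 10 of 10, at medians of 0.63, 1.72, 0.89 and 0.60, with 2, 8, 7 and 1 at that p. The skeletal muscle markers were below 0 for 10 of 10 with all libraries (median -2.19) and above 0 for 4 of the 8 tested in the liver-poor ones. The part of these cell types in the values of the 10 genes was not tested. Between high and intermediate clones 0 of the 10 were called (0% of all genes), and 1, Srxn1 (-0.39, standard error 0.16), had an unadjusted p under 0.05, against 10.3% of all genes. The 2 intermediate clones limit these comparisons, and the contrasts with low and with high clones share them.

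Within clones, 7 of the 10 genes differed between the library classes. Nqo1 was 1.60 higher on the log2 scale in liver-rich libraries (standard error 0.38, adjusted p = 0.00135, edgeR with a term for clone), Gclc 0.53 higher (0.13), Srxn1 0.42 (0.08), Gclm 0.24 (0.08) and Nfe2l2 0.18 (0.06). Gsr was lower, at -0.65 (0.09) and Keap1 at -0.45 (0.11), both past the threshold. Hmox1 (0.08), Slc7a11 (0.04) and Txnrd1 (-0.05) did not pass. Thus 5 of 10 were called higher, against 25.2% of all genes, and 2 of 10 lower, against 25.1%. Without the 7 nearly alike libraries Nqo1 (1.07), Srxn1 (0.31), Gsr (-0.68) and Keap1 (-0.59) still passed and the other 3 did not. Of all genes, 5187 of 18172 passed there. The liver markers were called higher in this class for 10 of 10 genes and the heart markers for 9 of 10, as were 9 of 10 skeletal muscle markers. Of the ductal markers 4 of 10 were called lower and 0 higher, of the macrophage markers 5 lower and 0 higher, and of the fibroblast markers 4 lower and 2 higher. The part of these cell types in the 7 differences was not tested.

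**Figure D4:**
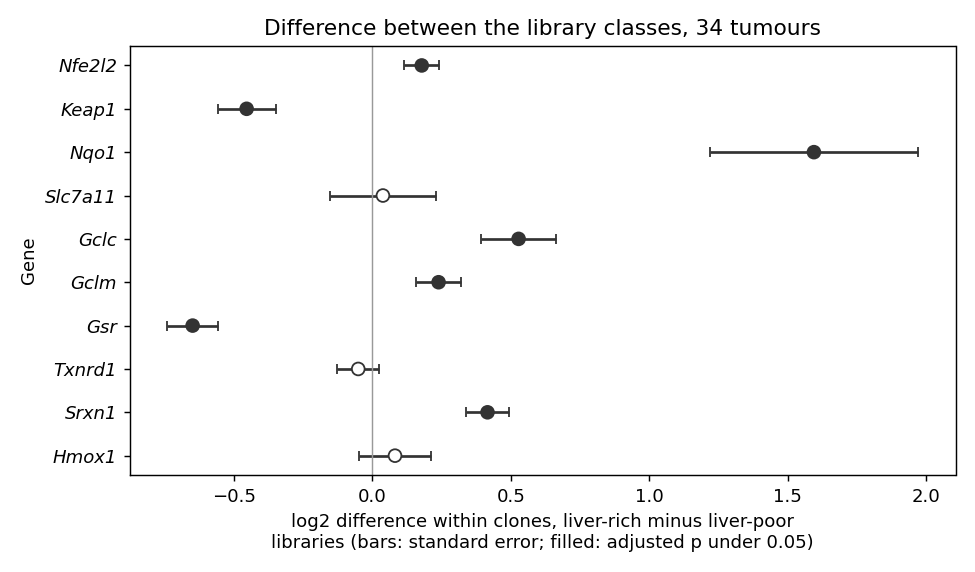
Log2 difference within clones between liver-rich and liver-poor libraries, for each gene over 34 tumours; bars are standard errors and filled points passed the adjusted threshold of 0.05. Nqo1 is farthest above 0 at 1.60 and Gsr farthest below at -0.65.

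A high and a low clone share the number before the letter c in bulk_6499c4 and bulk_6499c3, and likewise in bulk_6556c4 and bulk_6556c3. The sources used here do not say what that number stands for. In the first pair, tumour 2 of the high clone bulk_6499c4 held 0.717 CPM of Nqo1 against 13.9 in the low clone bulk_6499c3, and 20.2 CPM of Slc7a11 against 92.6. In the nearly alike tumour 1 of bulk_6499c4, Nqo1 was at 19.6 CPM against 15.02 in tumour 1 of bulk_6499c3. Over both tumours the log2 difference of bulk_6499c4 minus bulk_6499c3 was -1.83 for Slc7a11 (standard error 0.55, adjusted p = 0.271, edgeR), -1.42 for Nqo1 (0.99, 0.703), -0.60 for Gclm (0.23, 0.392) and -0.48 for Nfe2l2 (0.18, 0.391). None of the 10 passed, against 0.0807% of all genes, and 5 had an unadjusted p under 0.05, against 9.65% of all genes. In the second pair the leading gene was Hmox1. Tumour 2 of the high clone bulk_6556c4 held 115 CPM against 48.7 in tumour 2 of the low clone bulk_6556c3. Tumour 1 held 84.4 against 42.6 CPM, but that of bulk_6556c4 is 1 of the 7 nearly alike libraries, which all held 67.6 to 86.7 CPM. Over both tumours the log2 difference for Hmox1 was 1.17 (0.37, adjusted p = 0.651, edgeR). No gene passed in this pair (0% of all genes), with 2 of the 10 at an unadjusted p under 0.05, against 6.94% of all genes. The macrophage, granulocyte, endothelial and fibroblast markers were each higher by estimate in bulk_6556c4 for 10 of 10 genes, at medians of 0.72, 1.85, 0.71 and 0.70, and 0, 4, 3 and 2 of them had an unadjusted p under 0.05. The red blood cell markers were above 0 for 9 of 10 genes, at a median of 2.65, with 1 at that p. The part of these cell types in the Hmox1 difference was not tested. The difference between the 2 pairs was -1.69 for Hmox1 (0.52, adjusted p = 0.532) and did not pass. In that difference 0 of 10 red blood cell markers were above 0 (median -4.72), with 6 at an unadjusted p under 0.05. Of the granulocyte markers 2 of 10 were above 0 (median -2.95), with 5 at that p. Their part in it was not tested either.

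Levels of the 10 genes were compared with each other over the 15 clones, in the liver-poor libraries. None of 45 pairs passed an adjusted p of 0.05 in a permutation test of Pearson's r with 100000 resamples, and 33 of the 45 coefficients were positive. Gclc and Gclm, the subunits of 1 enzyme, had the highest r among pairs without Nqo1 (r = 0.689, rho = 0.593, permutation p = 0.00456, adjusted 0.103). Without the 2 clones farthest from the median of Gclc, r was 0.501. Slc7a11 and Gsr followed (r = 0.615, rho = 0.479, permutation p = 0.0153, adjusted 0.173), with r = 0.440 without the 2 clones farthest from the median of Slc7a11. Nfe2l2 and Nqo1 are not set against each other over all clones, because Nqo1 falls into separate ranges. Within the 8 clones of its upper range Nqo1 had r = 0.814 and rho = 0.762 with Slc7a11 (exact permutation p = 0.0177, adjusted over 6 correlations 0.106). Without the 2 of these clones farthest from the median of Nqo1 the coefficient was 0.319, so the relation rests on those clones. Within the 7 clones of its lower range, where counts are few, it had r = 0.131 and rho = -0.321 with Slc7a11. With Gsr it had r = 0.672 and rho = 0.762 in the upper range (exact permutation p = 0.0729, adjusted 0.146), with 0.238 without the 2 farthest clones. In the lower range it had r = 0.844 and rho = 0.607 with Gsr (exact permutation p = 0.0488, adjusted 0.146), with 0.933 without the 2 farthest. With Gclc r was -0.280 and -0.444, and none of the 6 passed once adjusted. Over clone sums of all libraries 5 of 45 pairs passed, sums that include the nearly alike libraries.

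**Figure D5:**
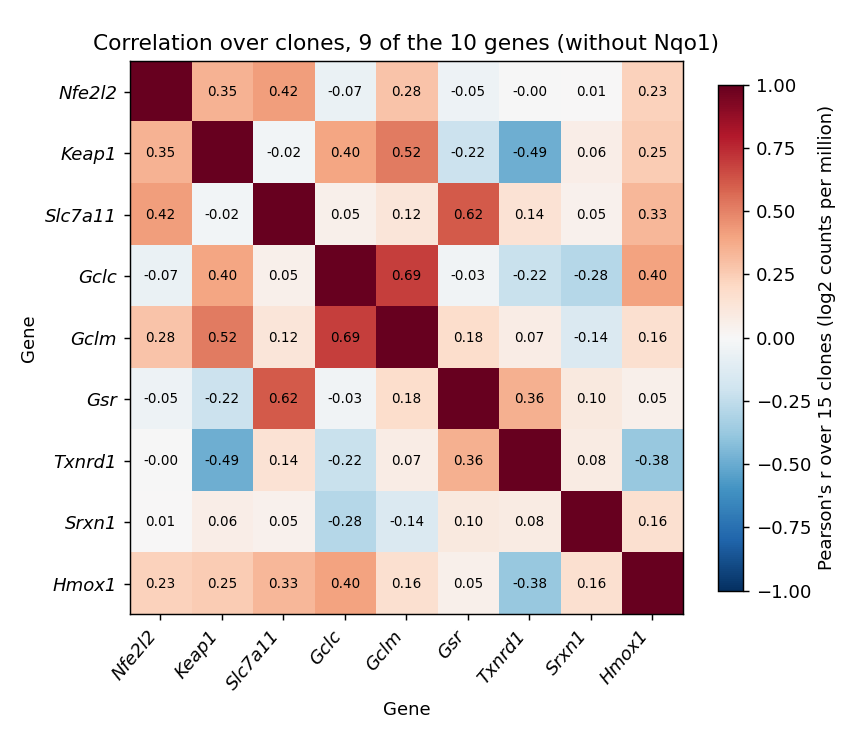
Pearson's r of log2 CPM over 15 clones for 9 of the 10 genes, in liver-poor libraries, from -1 (blue) to 1 (red). Gclc with Gclm is the highest at 0.69; Nqo1 is left out because its levels fall into separate ranges.

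The genes whose levels over the 15 clones were most like those of 3 members were taken by Pearson's r among 14988 genes that are no members. For Nqo1 these were Mb21d2, Tmem253 and Ddit4. Mb21d2 was at 1.86 to 3.74 CPM in the 7 clones of the lower Nqo1 range and at 9.37 to 29.6 CPM in the 8 of the upper. Within them r was 0.348 and 0.639, and -0.837 and 0.277 without the 2 farthest clones of each range. For Slc7a11 they were Sav1 (r = 0.888), Cenpo (0.882) and Map4k5 (0.877). For Hmox1 they were Cdkn1a (0.918), the cell cycle inhibitor p21, Cldn1 (0.877), a tight junction protein, and Mxd1 (0.857). Cldn1 was low in all clones, from 0.0286 (bulk_6555c3) to 2.66 CPM (bulk_6556c4), so its r rests on few counts. The genes named here are the extremes of a search over many genes in few clones, which also differ in library depth and cell content.

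Wider lists of the pathway were described the same way. Among 15 other regulators (the Cul3 ligase, Bach and small Maf proteins and related factors), 5 were above 0 in high against low clones with all libraries, 0 passed and 1 had an unadjusted p under 0.05. The smallest p among them was that of Nfe2l3, a relative of Nfe2l2, at a log2 difference of 1.94 (standard error 0.48, adjusted p = 0.659, edgeR). In the liver-poor libraries Nfe2l3 was at 35.9 ± 17.5 CPM in high clones (3.51 to 53.8), 5.87 ± 5.44 in low clones (2.13 to 16.7) and 36.7 ± 37.9 in intermediate clones, and the groups overlapped through bulk_2838c3. Its difference there was 2.58 (0.63, adjusted p = 0.711).

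Among 34 further Nrf2 targets 11 were above 0 in high clones, 0 passed and 3 had an unadjusted p under 0.05, with a median of -0.11. Gpx2, a glutathione peroxidase of epithelia, had the smallest p there, at 1.43 (0.55, adjusted p = 0.659). In the liver-poor libraries it was Osgin1, at -0.92 (0.31, adjusted p = 0.711). There the median of Osgin1 over high clones was 19.0 CPM, and over low clones 39.1. Among 27 other glutathione and thioredoxin genes 17 were above 0, 0 passed and 1 had an unadjusted p under 0.05. Sod1, the superoxide dismutase of the cytosol, led by p at -0.49 (0.19, adjusted p = 0.659). In intermediate against low clones Gpx3, a secreted glutathione peroxidase, had the smallest p of that list, at 1.80 with all libraries (0.38, adjusted p = 0.132). In the liver-poor libraries it was at 1.13 (0.40, adjusted p = 0.655, edgeR). There bulk_7160c5 held 355 CPM of Gpx3, and bulk_6422c5 held 88.8 CPM, inside the range of the low clones (79.5 to 116). Among 15 targets of Atf4, a factor that also drives Slc7a11, 7 were above 0 and 0 passed, with 0 at an unadjusted p under 0.05. Among 12 genes of haem and iron handling 5 were above 0 and 0 passed, again with 0 at an unadjusted p under 0.05.

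Between clones, 11 of the 34 targets, 12 of the 27 glutathione and thioredoxin genes, 4 of the 15 Atf4 targets, 3 of the 15 regulators and 2 of the 12 haem genes passed, to be read against 35.1% of all genes. Gsta4 (adjusted p = 5.69e-04), Me1 (8.93e-04) and Ugdh (0.00205) led the targets, and Ggct (1.87e-04) the glutathione genes, all from edgeR. With the library class, 14 of the 34 targets were called higher and 6 lower, against 25.2% and 25.1% of all genes. The largest differences were in genes of the liver: Abcc2 at 7.64 on the log2 scale (0.50) and Gsta2 at 3.41 (0.38). In liver-poor libraries Abcc2 averaged 0.126 CPM over the 7 high clones (SD 0.157) and 0.303 over the 6 low ones (SD 0.438).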

How the data were processed

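Total RNA of whole tumours was sequenced. The authors deposited 1 table of raw counts per gene; per the submitters' processing notes these came from STAR and featureCounts on mm10, with versions and strand setting not given in the sources used here. Groups, clones and tumour numbers were read from the labels. Levels are CPM of total counts; FPKM uses union exon length from GENCODE M21 (GRCm38), which holds 37607 of the 39017 gene IDs. Counts were summed per clone and fitted with edgeR 4.0.16 (R 4.3.3; TMM, filterByExpr, quasi-likelihood test, 1 coefficient per phenotype, p-values adjusted by Benjamini-Hochberg over all genes, threshold 0.05). Clone and library class were tested on tumour counts with both terms. Standard errors are approximate, from the log2 difference and its F statistic. A library is liver-rich above 10 CPM, summed over Myh6, Myh7, Cps1 and Serpina3k. Alternatives used DESeq2 1.42.0, limma 3.58.1, other size factors, no filter, blocks and clones left out. The fits were tested on simulated data. Tumours of the same number deviated together: over 15 clones with a tumour 1 and a later one, the differences between them correlated at 0.188 to 0.907 in all 105 pairs of clones, so the number was used as a block.

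The 10 genes and all lists were chosen with earlier results of these data known. Named genes are the 10, the gene with the smallest p of each list where none was called (or up to 3 called each way), and the 3 genes nearest to Nqo1, Hmox1 and Slc7a11. From these, those with the clearest levels are printed. Sequences are from RefSeq (GRCm38.p6). Nothing says whether tumours of a clone came from separate mice, so p-values over tumours measure the spread between these samples. Among the marker lists, 11 were run; liver, heart, macrophage, T cell and ductal markers are reported, and the granulocyte, fibroblast, endothelial, red cell, muscle and fat lists had 0 genes called between high and low clones (edgeR; 1, 1, 0, 0, 0 and 1 genes at an unadjusted p under 0.05 with all libraries).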

Additional observations from a re-analysis of the deposited data

Results flagged for a closer look

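Of 40 groups of clones tested for 1 value far from the rest (Dixon's test at 95%), 6 were singled out. Chance gives about 1 in 20 for independent groups of normally distributed values. The groups here take the same clones in 2 overlapping sets of libraries, so they are not independent. Nfe2l2 in bulk_6421c2 and Keap1 in bulk_6499c3 were each singled out in both sets. Nfe2l2 was high in the high clone bulk_6421c2, at 224.8 CPM over all libraries and 213 CPM in the liver-poor ones, with the next high clone at 169 and 148.6 CPM. It was also high in the low clone bulk_6499c3 over all libraries, at 197.2 CPM with the next at 163.5. The same clone held 136.5 CPM of Keap1 over all libraries and 156.1 CPM in the liver-poor ones, with the next low clone at 74.85 and 82.21 CPM. Both Keap1 values rest on tumour 2 of bulk_6499c3 (33.3 M counts). Its tumour 1 (7.39 M counts) held 48.03 CPM, so the high level was not seen in both tumours. Gclc was high in the high clone bulk_2838c3 over all libraries, at 319.9 CPM with the next at 215.7.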

How the results depend on the processing

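The count of members called between high and low clones was 0 under all 23 alternatives with all libraries and all 18 with the liver-poor ones. DESeq2 called 1 member, Nqo1, between intermediate and low clones with all libraries, where it called 941 of 21013 genes. Without a term for library class 2 members differed among clones, against 2549 of 18593 genes. Without the nearly alike libraries, an alternative chosen after seeing the data, 4 members moved with library class, against 5187 of 18172 genes. There Slc7a11 turned to -0.16. Over clone sums of all libraries 5 pairs of members correlated. With the tumour number as a replicate block (limma voom) 0 members were called, Keap1 turned to 0.039 and Hmox1 to 0.041 in high minus low; without the block, voom gave 0.071 and 0.043. With the clone number as a sister block Nfe2l2 turned to -0.16 and Hmox1 to 0.17. Leaving out a clone gave, with all libraries, -0.10 to 0.082 for Nfe2l2, -0.19 to 0.11 for Keap1, -0.11 to 0.11 for Hmox1 and -0.017 to 0.11 for Srxn1. With the liver-poor ones it gave -0.094 to 0.084 for Nfe2l2, -0.31 to 0.066 for Keap1, -0.20 to 0.075 for Hmox1 and -0.0026 to 0.13 for Txnrd1. The cause of these changes was not tested. Nqo1 stayed at -1.11 to -0.68 and -2.26 to -1.26 in the 2 sets when a clone was left out, while voom gave -1.83 and, with the tumour number block, -1.53 with all libraries; Slc7a11 stayed at -1.53 to -0.88 and -1.75 to -0.92. Nqo1 under 1 CPM rests on few counts, and 2 intermediate clones limit that contrast.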

Other observations

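The 3 tumours whose labels give no phenotype are reported as values only. Nqo1 was at 1.34 CPM in bulk_6883c1 tumour 1, 3.21 in bulk_6883c4 tumour 1 and 9.30 in bulk_7062c3 tumour 2. Slc7a11 was at 15.8, 15.7 and 48.3 CPM in the same order. Gsr was at 126, 182 and 780 CPM, and the first 2 of these lie below all 34 tumours with a phenotype (242 to 1173). Gclc in bulk_6883c1 tumour 1, at 65.7 CPM, also lay below all 34 (84.1 to 503). The T cell markers summed to 15.4 to 166 CPM in these 3 tumours, where the 34 others had 4.37 to 71.0.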
